A study of Mus musculus with 6 samples.

Results

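The replication-dependent histone genes of the mouse, taken as every gene symbol that begins with Hist1h, Hist2h, Hist3h or Hist4h, numbered 68 of the 24421 genes counted. They comprised 6 genes of the linker histone H1 and, of the core histones, 18 genes of H2A, 19 of H2B, 12 of H3 and 13 of H4. RNA-seq reads per gene had been counted in 6 libraries, 1 per condition, to ask how loss or gain of Dot1l, the methyltransferase of lysine 79 of histone H3, alters transcription in endothelial cells. Cont and cKO blood endothelial cells (BECs) were sorted from the skin of E15.5 littermates that all carried the floxed allele Dot1l 2f/2f and were negative (Cont) or positive (cKO) for the Tie2-Cre transgene, and the labels call them wild type and Dot1l KO. Tie2-Cre is active in endothelium and also in blood-forming cells, the sort took CD31-positive cells without F4/80, CD45 or Lyve1, and RNA of several embryos was pooled for each library. OE-BECs (yolk sac line CRL-2581) and OE-LECs (dermal lymphatic endothelial cells, C57-6064L) were transduced with a lentivirus carrying dCas9 fused to the VP64 activator, guides to the Dot1l promoter and EGFP, and their controls with empty lentivirus. Each cultured cell type was a single line. With 1 library per condition no spread between replicates could be measured, so each comparison describes 2 libraries, and the 95% intervals below are exact (Clopper-Pearson) and cover counting error only.

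Replication-dependent histone genes supply the protein that packages newly copied DNA, and their transcription is switched on in S phase by the coactivator NPAT. Their mRNAs are unusual among those of animals in that they are not spliced and usually end without a poly(A) tail, in a conserved stem-loop bound by the protein SLBP, which is needed for their processing, translation and timely decay. The genes lie in clusters, with many H2A and H2B genes arranged head to head around a shared promoter, and several copies encode the same protein. A subset can also give polyadenylated transcripts, and the replacement histones, which are made throughout the cell cycle, come mostly from ordinary polyadenylated genes.

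The stem-loop was searched in the GENCODE M21 transcripts (GRCm38, the assembly of mm10) on the sense strand, as arms of 6 bases that pair, the 5′ arm beginning with GG and ending with T, around a loop of 3 T and any base, because it is the feature that sets these mRNAs apart. It was found in 44 of the 68 members (64.7%) and in 10 of 23308 other genes (0.0429%). Among these 10 were the histone genes H2afx and H2bfm, and Trim17, which overlaps the member Hist3h2a and shares sequence with it. In every one of the 44 it lay after the coding sequence, from 25 to 62 bases beyond the last codon before the stop (median 35). Of the 42 members with at least 80 annotated bases after the coding end, 36 held it, and in 18 of the 24 members without it the annotation ended sooner than that after the coding sequence. The 6 forms are given with an example of each, the paired arms in capitals and the loop in lower case.
Hist1h1c, chr13:23739512-23739527, plus strand: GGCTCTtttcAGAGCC
Hist1h3e, chr13:23561903-23561918, minus strand: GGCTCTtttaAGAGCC
Hist2h2ac, chr3:96220418-96220433, minus strand: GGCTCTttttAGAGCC
Hist1h4d, chr13:23581950-23581965, plus strand: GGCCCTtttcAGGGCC
Hist1h4i, chr13:22040966-22040981, minus strand: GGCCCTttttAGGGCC
Hist1h4b, chr13:23757366-23757381, plus strand: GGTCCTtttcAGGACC
The arms divided by histone type. All 33 loops of H1, H2A, H2B and H3 genes had the arms of the first 3 forms, and the form of Hist1h1c alone accounted for 26 of them. None of the 11 H4 loops had those arms: 9 had the arms of Hist1h4d and 2, in Hist1h4b and Hist1h4j, those of Hist1h4b.

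RefSeq (GRCm38.p6) promoters were at hand for 62 of the 68 members, and the 250 bases before the start were searched on both strands for the box CCAAT, for the TATA box as TATAAA, for the octamer ATTTGCAT and for AAACACA, a motif known from H1 promoters. CCAAT was present in all 40 H1, H2A and H2B promoters and in 8 of 10 of H3, but in 3 of 12 of H4 (25.0%), beside 34.5% of all 27025 genes. TATAAA was found in 29 of the 62 (46.8%), beside 12.97% of all genes. The octamer was found in 7 of 18 H2A promoters (38.9%) and 6 of 16 H2B promoters (37.5%) and in no H1, H3 or H4 promoter, beside 1.61% of all genes, and head-to-head genes share part of these windows. AAACACA was found in 5 of 6 H1 promoters (83.3%), beside 6.22% of all genes. The 4 promoters below belong to the H1 gene with the most reads, to the H2A gene that differed most between the skin libraries, and to the H4 genes that stood furthest apart there, with the motifs in capitals.
Hist1h1c, chr13:23738557-23738806, plus strand: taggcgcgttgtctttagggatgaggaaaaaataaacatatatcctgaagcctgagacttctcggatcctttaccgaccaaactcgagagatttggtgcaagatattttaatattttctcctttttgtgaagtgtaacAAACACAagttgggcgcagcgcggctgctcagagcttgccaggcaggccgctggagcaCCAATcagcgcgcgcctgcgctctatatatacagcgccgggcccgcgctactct
Hist1h2ad, chr13:23574131-23574380, plus strand: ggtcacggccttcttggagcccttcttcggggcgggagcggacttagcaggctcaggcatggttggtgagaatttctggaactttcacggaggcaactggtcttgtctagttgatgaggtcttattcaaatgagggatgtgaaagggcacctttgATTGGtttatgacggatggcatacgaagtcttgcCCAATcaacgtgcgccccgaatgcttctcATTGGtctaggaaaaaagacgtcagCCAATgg
Hist1h4d, chr13:23581318-23581567, plus strand: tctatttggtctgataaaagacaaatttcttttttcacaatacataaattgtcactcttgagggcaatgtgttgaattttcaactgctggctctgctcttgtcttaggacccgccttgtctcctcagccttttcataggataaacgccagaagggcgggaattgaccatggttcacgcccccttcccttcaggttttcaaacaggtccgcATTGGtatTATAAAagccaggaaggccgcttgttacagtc
Hist1h4b, chr13:23756687-23756936, plus strand: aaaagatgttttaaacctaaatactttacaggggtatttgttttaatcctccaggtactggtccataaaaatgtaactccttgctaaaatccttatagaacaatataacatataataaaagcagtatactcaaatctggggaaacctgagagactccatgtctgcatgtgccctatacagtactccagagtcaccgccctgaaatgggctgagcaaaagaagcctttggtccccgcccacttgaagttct
The window of Hist1h2ad held 4 CCAAT motifs and reaches into Hist1h2bf, the H2B gene transcribed the other way. The window of Hist1h4d held 1 CCAAT and 1 TATAAA, whereas none of the 4 motifs was in the 250 bases before Hist1h4b. The windows of the H4 genes Hist1h4h, Hist1h4j and Hist4h4 also held none of them. The Hist1h4b window ends at 23756936, ahead of the GENCODE M21 start at 23757013, so bases next to that start were not searched. How the motifs relate to the skin ratios was not tested.

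Total counts ranged from 8863349 to 31032461 per library. Dot1l, the targeted gene, had 762 reads in skin Cont and 944 in skin cKO BECs (86.0 and 85.2 CPM, reads per 1000000 counted), 1972 and 4208 in cultured Cont and OE-BECs, and 2490 and 6720 in Cont and OE-LECs. It was thus higher in both OE libraries, while whole-gene counts showed no fall in the skin pair. Such counts cannot tell a transcript lacking the floxed exon from an intact one. The paper reports RT-qPCR checks of Dot1l for both the cKO and the overexpression, which these counts do not repeat. The skin cKO sample is called the cKO-labelled library here. Markers departed from the labels in several libraries. In the LEC libraries the lymphatic markers Prox1 and Pdpn were at 0 reads, while Lyve1 stood at 1998 and 1962 CPM there. The skin libraries, sorted without Lyve1, had 1027 and 1801 CPM of Lyve1, 147 and 79.7 of Prox1 and 18.8 and 41.2 of Pdpn. In the cultured BECs Lyve1 was at 604 and 1061 CPM. Flt4, the other lymphatic marker listed, had 294 and 237 CPM in skin, 144 and 98.3 in cultured BECs and 107 and 130 in LECs.

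Histone genes drew 0.289 to 0.544% of the reads in the 4 BEC libraries and almost none in the LEC libraries. Their summed level was 2893 CPM in the skin Cont library and 5437 in the cKO-labelled one, 2947 in the control yolk sac line and 3674 with Dot1l overexpressed there, and 6.70 and 7.31 in the LEC control and its overexpressing counterpart. The LEC libraries were the deepest of the series, yet only 175 and 227 of their reads lay on the 68 genes, against 25645 to 60263 in the others, and the lowest BEC library stood 396-fold above the highest LEC library. The gap was 1102-fold for H1, 625-fold for H3, 444-fold for H4, 204-fold for H2A and 185-fold for H2B. The low counts extended over nearly all members, of which 25 had no read in either LEC library and 56 had no more than 3 reads in each, 3 reads being the limit that a count of 0 allows (0.115 and 0.0967 CPM).

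**Figure D1:**
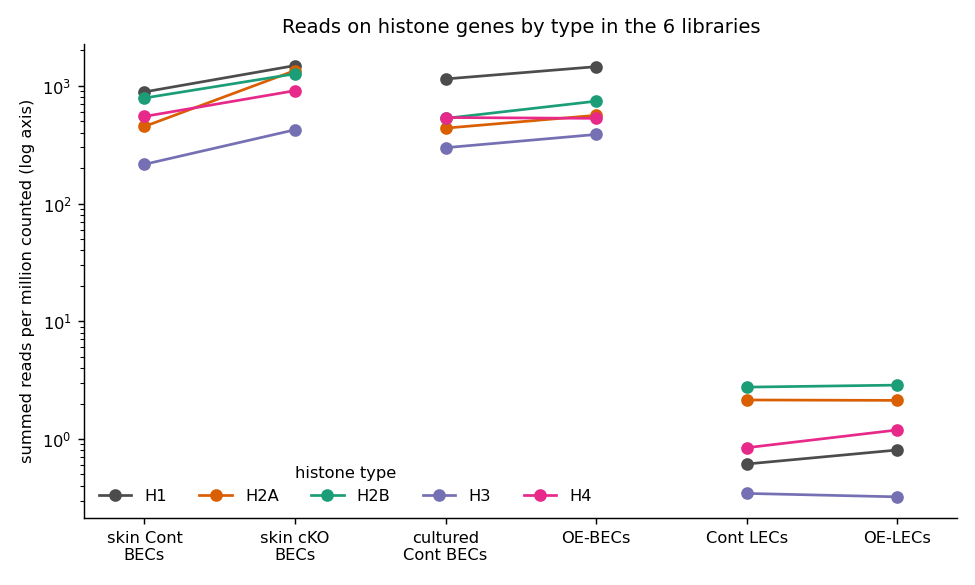
Summed CPM (log axis) on the genes of each histone type in the 6 libraries, with a line joining the 2 libraries of each comparison. All 5 types lie above 200 CPM in the BEC libraries and below 3 CPM in the LEC libraries, and H2A has the steepest line in the skin pair.

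S-phase genes did not follow this gap. The 20 genes of the S-phase list, including the sliding clamp Pcna, the ribonucleotide reductase subunits Rrm1 and Rrm2 and the Mcm helicase subunits, summed to 2228, 2276, 1693, 2494, 3097 and 3159 CPM in the same order of libraries, and were thus highest in the LECs. Histone reads per S-phase read were 1.30, 2.39, 1.74 and 1.47 in the BEC libraries but 0.00216 and 0.00232 in the LECs. Slbp, the stem-loop binding protein, was at 97.7, 108, 78.0, 112, 127 and 120 CPM, and Npat at 110, 99.5, 52.2, 52.5, 67.9 and 65.3 CPM, so both were counted in every library. The proliferation marker Mki67 was at 467 and 396 CPM in the LECs, below its 713 to 2970 CPM in the BEC libraries.

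Small RNAs without a poly(A) tail were also scarce in the LECs. These genes were chosen after their values were seen. The RNase P RNA Rpph1 had 519, 591, 2019 and 400 CPM in the BEC libraries and 0.115 and 0.193 CPM in the LECs, and the RNase MRP RNA Rmrp had 216 to 624 CPM and 0.421 and 0.161 CPM. With Scarna2, Scarna13, Rnu11 and Rnu12 the 6 small RNAs summed to 785, 891, 2828 and 791 CPM in the BECs and to 0.727 and 0.677 CPM in the LECs. Ribosomal precursor reads (Rn45s) were lower in the LECs by less, at 534 and 632 CPM beside 5172 to 108864 CPM elsewhere. How RNA was selected before library preparation is not given in the sources used here, and its part in the LEC levels was not tested, so levels of histone genes are not compared between LECs and BECs as a property of the cells.

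**Figure D2:**
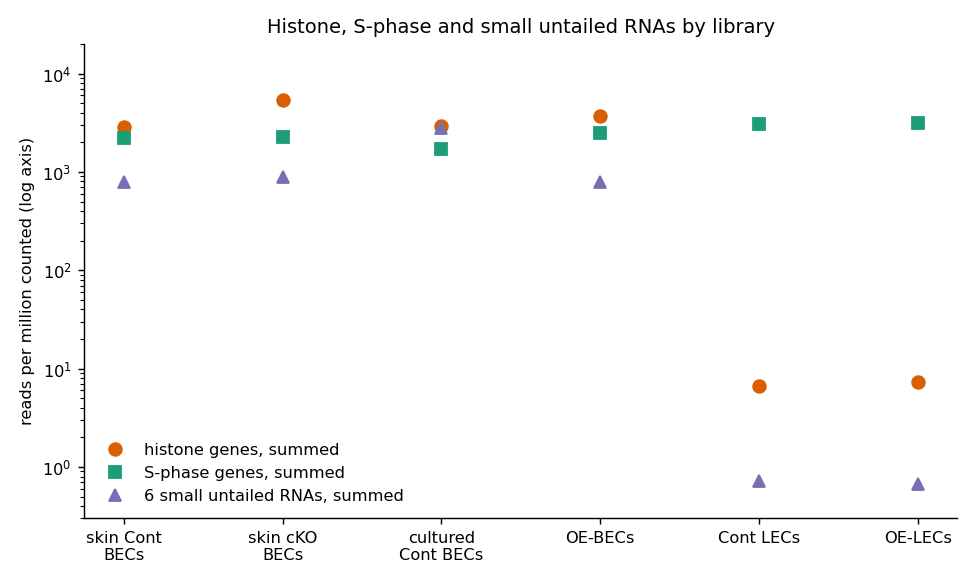
CPM (log axis) of the histone genes, the 20 S-phase genes and 6 small untailed RNAs, each summed, in the 6 libraries. In the LEC libraries histone genes (6.70 and 7.31 CPM) and small untailed RNAs (0.727 and 0.677 CPM) are near the bottom of the axis while S-phase genes are at 3097 and 3159 CPM.

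The few histone reads of the LECs lay on a different subset of genes. The polyadenylation signal AATAAA was found in the last 60 bases of an annotated transcript of 15 members, beside 15510 of 23308 other genes. As 26 members had under 80 annotated bases after the coding end, the signal could be missed where the annotation stops early. These 15 members took 14.7% (14.3 to 15.1), 13.7% (13.5 to 14.01), 20.7% (20.4 to 21.1) and 18.6% (18.3 to 19.0) of histone reads in the BEC libraries. In the LECs the same 15 took 61.7% (54.1 to 68.9, 108 of 175 reads) and 55.5% (48.8 to 62.1, 126 of 227 reads). Of all 402 LEC reads, 280 lay on 5 members with at least 20 reads in the pair. Hist3h2a had 49 and 54 reads, Hist2h2be 40 and 42, Hist1h2bc 19 and 25, Hist1h1c 11 and 15, and Hist1h4i 5 and 20. AATAAA was present in Hist3h2a, Hist2h2be and Hist1h1c and not found in the window of Hist1h2bc and Hist1h4i. Hist3h2a alone gave 49 of the 108 and 54 of the 126 reads on the 15 members. It overlaps Trim17 and the predicted gene Gm44313, so its reads may include theirs. Hist2h2be was the member least set apart, with 4.40, 10.3, 2.77, 1.15, 1.53 and 1.35 CPM across the libraries, so that its LEC values lay above its OE-BEC value.

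**Figure D3:**
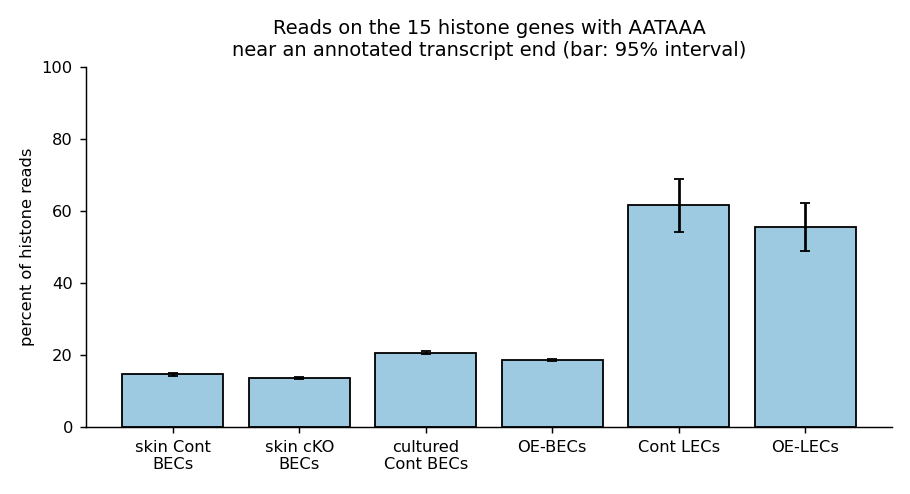
Percent of histone reads (vertical axis, 0 to 100) on the 15 members with AATAAA near an annotated transcript end, by library. Bars are the share and whiskers its exact 95% interval, and the 2 LEC bars (61.7 and 55.5%) stand above the 4 BEC bars (13.7 to 20.7%).

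Within the BEC libraries 5 genes supplied 41.7 to 47.4% of the histone reads. Per length of the RefSeq span, the leading genes of skin Cont BECs were Hist2h2bb (861 RPKM), Hist1h4d (743), Hist1h1c (371), Hist1h1e (291) and Hist1h1d (198). In cultured Cont BECs they were Hist1h1c (473 RPKM), Hist2h2bb (467), Hist1h4d (389), Hist1h1e (370) and Hist1h1d (363). The same 5 genes led in both, and in the cultured control Hist1h1c and Hist2h2bb were close neighbours. Hist2h2bb overlaps the predicted genes Gm20628 and Gm42743, so its reads may include theirs. H1 genes took 30.7% (30.1 to 31.3) and 27.4% (27.0 to 27.7) of histone reads in the skin libraries and 38.8% (38.4 to 39.2) and 39.6% (39.2 to 40.0) in the cultured BECs. At the other end 8 members had no read in any library. Hist1h2ao, Hist1h2ap, Hist1h2bq, Hist1h2br, Hist1h4m, Hist2h2aa1, Hist2h3c1 and Hist2h3c2 share over 50% of their 75-base windows with other genes, so reads from them could have been left uncounted or counted elsewhere.

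In the skin pair, histone genes were higher in the cKO-labelled library. After normalisation by the median of ratios the summed level was 1.81-fold that of Cont (log2 ratio 0.85, 95% interval 0.83 to 0.88). Of the 56 members with at least 20 reads in the pair, 51 were higher in the cKO-labelled library, beside 7142 of the 14437 genes with 20 reads. Higher by at least 1.5-fold were 37 members, beside 14.9% of those genes. At least 1.5-fold lower was 1 member, beside 9.82% of genes. The median log2 ratio of the 56 members was 0.81, against -0.0058 for all 14437 genes, and the interval lay above 0 for 44 members (24.2% of genes) and below 0 for 1 (26.8%). By the rule of the study, a normalised count of at least 5 that exceeds 3 times the other, 9 of 57 members were called higher and 1 lower, beside 5.17% and 2.41% of genes. The cluster on chromosome 13 (Hist1, 54 members) was 1.92-fold higher in sum, with a median log2 ratio of 0.80 over 47 members with 20 reads, and that on chromosome 3 (Hist2, 10 members) 1.28-fold, with a median of 1.13 over 6. The medians thus lay in the other order than the sums, and Hist2h2bb, which had 3761 of the 4834 Hist2 reads in Cont, was at 0.04. Hist3 (3 members) was 2.77-fold and Hist4 (1 member) 1.48-fold higher. Without the 28 members that share 50% or more of their 75-base windows with other genes the level of all members was 1.62-fold (log2 0.70, 0.67 to 0.72), and that of the 28 was 2.60-fold.

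The 5 types differed in size. H2A was 2.87-fold higher (log2 1.52, 1.47 to 1.57), H3 1.89-fold (0.92, 0.84 to 0.997), H1 1.61-fold (0.69, 0.65 to 0.73), H4 1.59-fold (0.67, 0.62 to 0.72) and H2B 1.55-fold (0.63, 0.59 to 0.67). The interval of H2A did not meet that of any other type, whereas those of H1, H4 and H2B met one another in part. H2A made up 15.6% of histone reads in Cont and 24.8% in the cKO-labelled library, and H2B 27.2% and 23.3%.

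**Figure D4:**
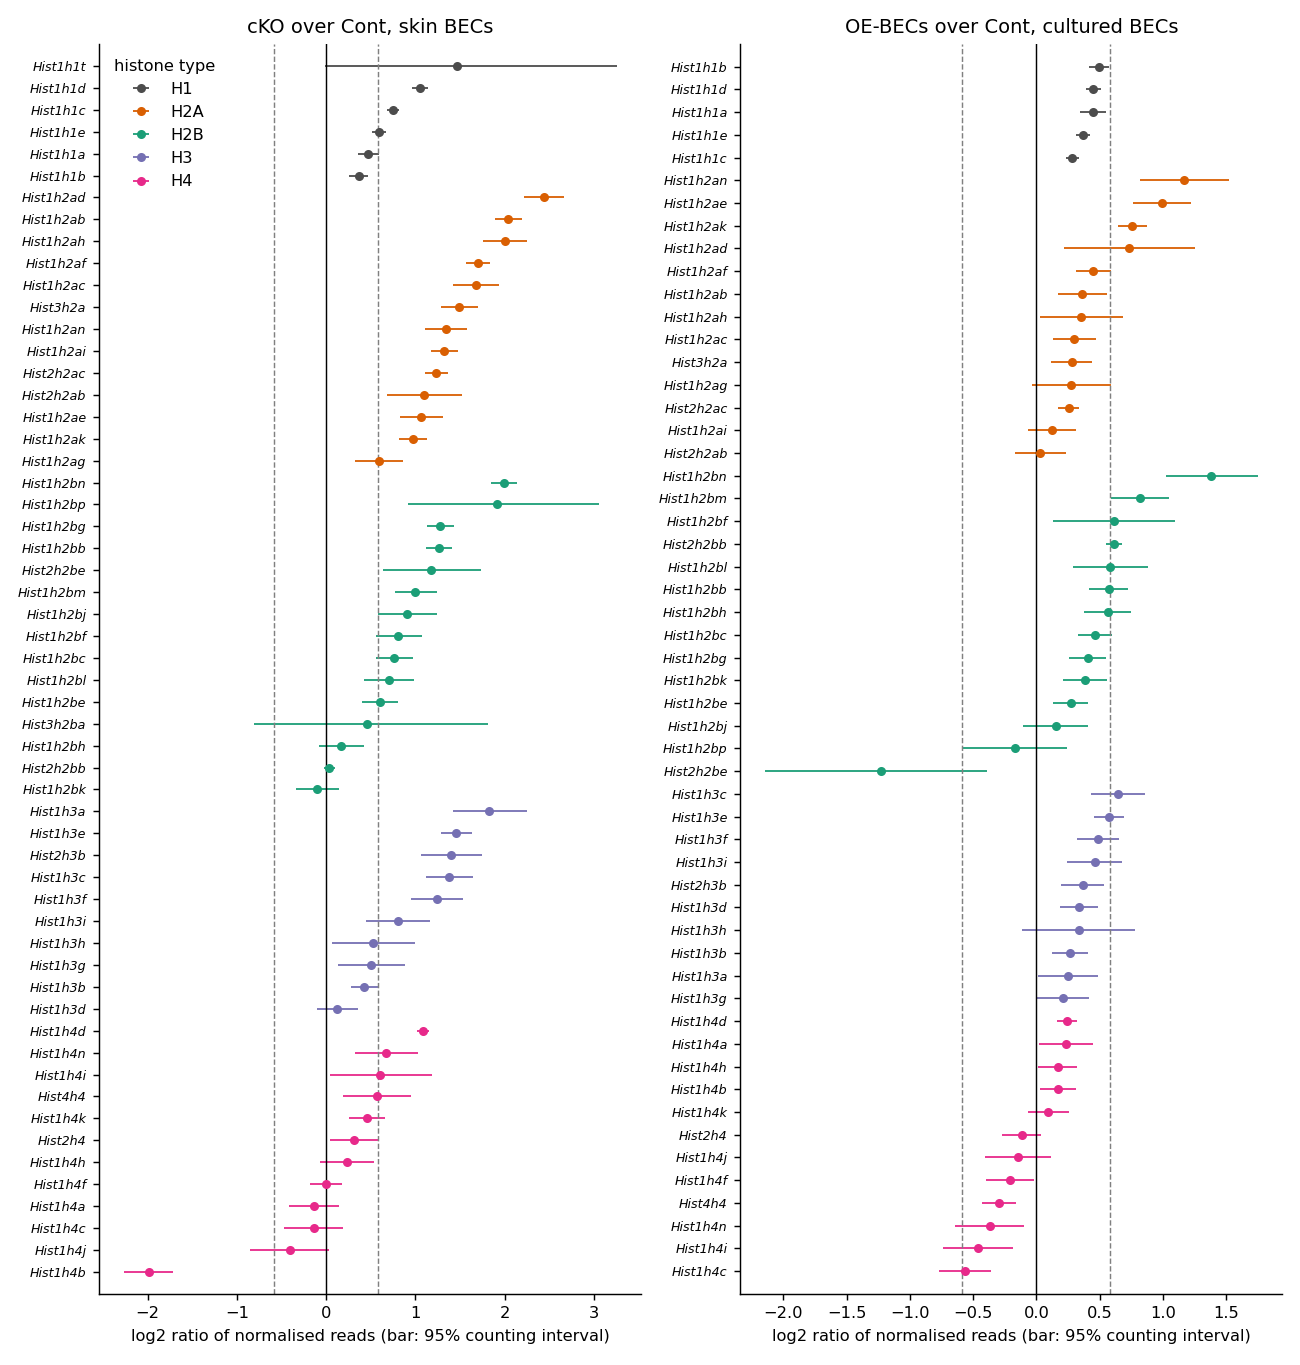
Log2 ratio of normalised reads for each member with at least 20 reads in the pair, by histone type, for cKO over Cont in skin BECs (left, 56 members) and OE-BECs over Cont (right, 54 members). Bars are exact 95% counting intervals, dashed lines mark 1.5-fold, and H2A genes lie to the right of 0 in both panels while H4 genes lie on both sides.

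H2A, which pairs with H2B in the nucleosome, was higher in all 13 of its members with 20 reads, each by at least 1.5-fold. Hist1h2ad had 194 reads (21.9 CPM) in Cont and 1367 (123 CPM) in the cKO-labelled library, the largest log2 ratio of any member with 100 reads (2.44, 2.22 to 2.66). Hist1h2ab had 418 and 2239 reads (47.2 and 202 CPM, log2 2.04, 1.89 to 2.20), and Hist1h2ah 166 and 864 (18.7 and 77.9 CPM, log2 2.002, 1.76 to 2.25). These 3, with Hist1h2af (581 and 2453 reads, log2 1.70) and Hist1h2ac (160 and 664, log2 1.68), passed the 3-fold rule. Hist2h2ac, the H2A gene with the highest mean CPM over the 6 libraries, had 693 and 2121 reads (log2 1.24, 1.11 to 1.36), and Hist1h2ak 465 and 1182 (log2 0.97, 0.81 to 1.13). Hist1h2ag was lowest, at 173 and 339 reads (log2 0.59, 0.32 to 0.87). Near-identical copies leave the split between single H2A genes uncertain, and all 18 overlap another annotated gene, but the 7 members that share under 50% of their 75-base windows with other genes were together 2.35-fold higher (log2 1.24, 1.16 to 1.31).

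H2B was uneven, and its most counted gene hardly differed. Hist2h2bb had 3761 and 5013 reads (424 and 452 CPM, log2 0.04, -0.023 to 0.10) and made up 53.8% of H2B reads in Cont and 35.7% in the cKO-labelled library. Hist1h2bn had 450 and 2329 reads (50.8 and 210 CPM, log2 1.99, 1.85 to 2.14), Hist1h2bb 518 and 1615 (log2 1.26, 1.12 to 1.41) and Hist1h2bg 464 and 1461 (log2 1.28, 1.13 to 1.43). Hist1h2bp, with 10 and 49 reads (log2 1.91, 0.92 to 3.06), also passed the 3-fold rule, as Hist1h2bn did. In all, 14 of 15 H2B members were higher and 11 by 1.5-fold. The exception was Hist1h2bk at 271 and 329 reads (log2 -0.098, -0.33 to 0.14).

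H3, the histone that Dot1l modifies, was higher in all 10 members with 20 reads and by 1.5-fold in 6. Hist1h3e had 346 and 1233 reads (39.0 and 111 CPM, log2 1.46, 1.28 to 1.63). Hist1h3b had 601 and 1051 reads (67.8 and 94.8 CPM, log2 0.43, 0.28 to 0.58). Hist1h3a, with 61 and 281 reads (log2 1.83, 1.42 to 2.25), was the H3 gene past the 3-fold rule. Hist1h3d differed by less than counting error (273 and 387 reads, log2 0.13, -0.10 to 0.35).

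H4 was the type most divided among its members. Hist1h4d alone had 2649 reads (299 CPM) in Cont and 7292 (658 CPM) in the cKO-labelled library (log2 1.08, 1.02 to 1.15) and went from 54.4% to 72.3% of H4 reads. The median of the 12 H4 members with 20 reads was 0.27. Of these, 8 were higher, 3 of them by 1.5-fold, and 4 were lower, 1 of them by 1.5-fold. Hist1h4b, the gene with the GGTCCT arm printed above, had 446 reads (50.3 CPM) in Cont and 146 (13.2 CPM) in the cKO-labelled library (log2 -1.99, -2.27 to -1.72), the one member past the 3-fold rule in that direction, while the cultured BECs held it at 50.5 and 55.3 CPM. Next lowest was Hist1h4j, the other gene with that arm (91 and 89 reads, log2 -0.41, -0.85 to 0.03), then Hist1h4c (146 and 172, log2 -0.14, -0.47 to 0.19). How the stem-loop arms relate to the ratios was not tested. Hist1h4k had 325 and 580 reads (log2 0.46, 0.26 to 0.66). Hist1h4b overlaps the non-coding gene 4930558J22Rik.

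Linker histone H1 genes, which bind the DNA between nucleosomes, were higher in all 6 members, and the 5 with 100 reads lay between log2 0.36 and 1.05. Hist1h1d had 1360 and 3667 reads (153 and 331 CPM, log2 1.05, 0.96 to 1.14), Hist1h1c 2382 and 5205 (269 and 470 CPM, log2 0.75, 0.68 to 0.82) and Hist1h1e 2016 and 3948 (227 and 356 CPM, log2 0.59, 0.51 to 0.67). Hist1h1a had 937 and 1690 reads (log2 0.47, 0.36 to 0.59) and Hist1h1b 1172 and 1961 (log2 0.36, 0.26 to 0.47). Hist1h1t had only 5 and 18 reads (log2 1.47, -0.013 to 3.25). Hist1h1e shares bases with Hist1h2be on the same strand. Among the 5 with 100 reads the order of the ratios was not that of the levels, since Hist1h1d had the largest ratio and stood behind Hist1h1c and Hist1h1e per length in Cont.

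Head-to-head neighbours did not have equal ratios. In 9 H2A and H2B pairs with 20 reads in each gene, H2A had the larger log2 ratio in 5, and the difference of H2A minus H2B ran from -1.03 to 2.10. Hist1h2ah stood at 2.002 and its partner Hist1h2bk at -0.098, and Hist1h2ad at 2.44 with Hist1h2bf at 0.81 (180 and 410 reads). Hist1h2bn at 1.99 exceeded its partner Hist1h2ak at 0.97. High and low ratios alternated along the Hist1 cluster, and Hist1h4b lay between Hist1h3b (0.43) and Hist1h4a (-0.14).

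**Figure D5:**
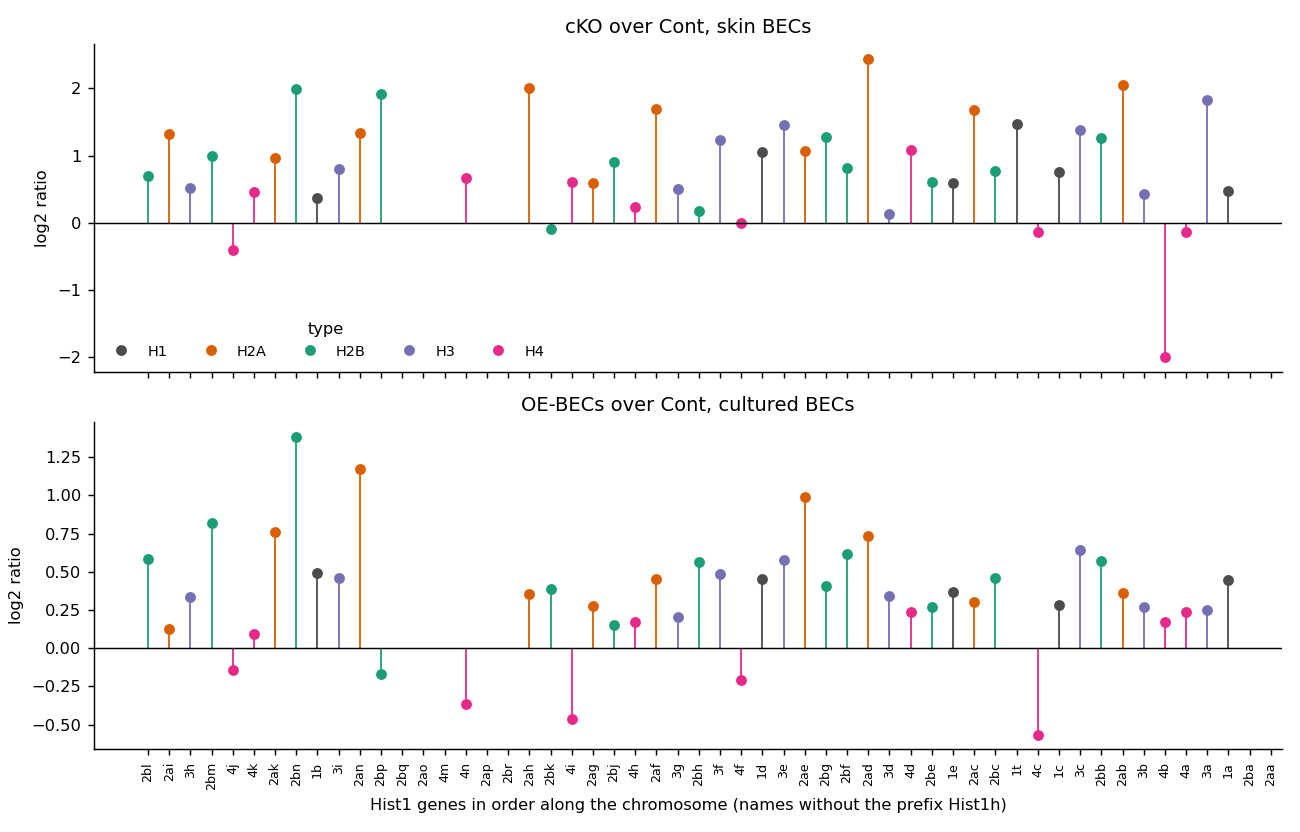
Log2 ratio (vertical axis) of the Hist1 genes with at least 20 reads, placed in their order along chromosome 13, for the skin pair (above) and the cultured BEC pair (below), coloured by type. H4 genes make up the points below 0 except Hist1h2bk in the skin pair and Hist1h2bp in the cultured pair, and neighbours differ widely.

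Most of the listed genes that act with the histones moved little in the skin pair. None of the 20 S-phase genes differed by 1.5-fold in either direction (median log2 -0.0056), with Pcna at 174 and 189 CPM (log2 0.06, -0.032 to 0.16). Of 12 mitosis genes 11 were higher, 1 by 1.5-fold, and Mki67 was at 2426 and 2970 CPM (log2 0.24, 0.21 to 0.26) and Top2a at 893 and 1124 CPM (0.28, 0.24 to 0.32). Of 17 genes of histone gene transcription and mRNA processing 1 was higher by 1.5-fold and none lower (median -0.087). The higher gene was Zfp473, with 18 and 49 reads (log2 1.07, 0.26 to 1.93). Slbp was at log2 0.09 (-0.042 to 0.21) and Npat at -0.21 (-0.33 to -0.080). The cleavage factor Cpsf2 was at -0.19 (-0.31 to -0.065) and the cap-complex partner Srrt at 0.08 (-0.010 to 0.18). Of 7 histone chaperones none differed by 1.5-fold, with Nasp at 333 and 335 CPM and the importin Ipo4 at 41.5 and 49.5 CPM. Of 11 replacement histones 3 were higher by 1.5-fold (median 0.07), beside 14.9% of all genes with 20 reads. They were H2afx (log2 0.64, 0.49 to 0.78), H2afy2 (1.03, 0.74 to 1.33) and H1fx (1.25, 0.28 to 2.32, on 12 and 37 reads). The most counted replacement histones, H3f3b and H1f0, were at log2 0.06 (-0.0048 to 0.12) and 0.06 (-0.017 to 0.15).

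Marker lists of other cells also differed between the skin libraries. The 7 blood endothelial genes were all lower in the cKO-labelled library (5783 and 3480 CPM summed, 6 lower by 1.5-fold), while 5 of 6 macrophage genes (890 and 1256 CPM) and 4 of 5 keratinocyte genes (97.3 and 198 CPM) were higher, with no marker of these lists at 0. The 5 fibroblast genes summed to 1324 and 949 CPM and the 5 muscle genes to 29.9 and 13.8 CPM. Their part in the histone levels was not tested, and fewer cells of a type cannot be told apart from less RNA per cell.

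In the cultured BEC pair, the summed histone level was 1.28-fold higher in OE-BECs (log2 0.36, 0.34 to 0.37; 52125 reads in Cont and 51195 in the shallower OE-BEC library). Of 54 members with 20 reads 45 were higher, beside 6060 of 12500 genes. Higher by at least 1.5-fold were 9 members, beside 11.2% of those genes, and 1 was lower by that much, beside 13.6%. The interval lay above 0 for 38 members (28.1% of genes) and below 0 for 6 (31.3%). The median log2 ratio was 0.34, against -0.015 for all 12500 genes. By the 3-fold rule, here with a minimum of 3, none of 57 members was called higher (8.02% of genes) and 1 lower (5.27%), Hist2h2aa2, with 8 reads in Cont and 0 in OE-BECs, which is at least 1.31-fold lower.

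In this pair H4 stood apart from the other types. H2B was 1.44-fold higher (log2 0.52, 0.48 to 0.56), H3 1.33-fold (0.41, 0.36 to 0.47), H2A 1.32-fold (0.40, 0.36 to 0.45) and H1 1.31-fold (0.39, 0.36 to 0.41), but H4 1.01-fold (0.02, -0.029 to 0.059). The H4 interval met none of the other 4. All 5 H1, 13 H2A and 10 H3 members with 20 reads were higher, against 5 of 12 H4 members, and 7 of the 9 members lower in OE-BECs were H4 genes. The lowest with 100 reads were Hist1h4c at 561 and 291 reads (31.7 and 20.9 CPM, log2 -0.56, -0.77 to -0.36), Hist1h4i at 303 and 169 (17.1 and 12.1 CPM, log2 -0.46, -0.74 to -0.18) and Hist1h4n at 301 and 179 (17.0 and 12.8 CPM, log2 -0.37, -0.64 to -0.10). Hist1h4d was at 2769 and 2505 reads (157 and 180 CPM, log2 0.24, 0.16 to 0.32), Hist1h4b at 893 and 770 (log2 0.17, 0.03 to 0.31) and Hist1h4k at 684 and 560 (log2 0.09, -0.069 to 0.26). The other two lower members were the H2B genes Hist1h2bp (123 and 84 reads, log2 -0.17, -0.59 to 0.24) and Hist2h2be (49 and 16, log2 -1.23, -2.15 to -0.39).

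The largest ratios were again in H2A and H2B. Hist1h2bn had 97 and 194 reads (5.48 and 13.9 CPM, log2 1.38, 1.02 to 1.75), Hist1h2an 109 and 188 (6.16 and 13.5 CPM, log2 1.17, 0.82 to 1.52) and Hist1h2ae 269 and 410 (15.2 and 29.4 CPM, log2 0.99, 0.77 to 1.22). These were genes of low level in this line, where Hist1h2bn was at 11.5 RPKM against 106 in skin Cont BECs. Among the most counted genes, Hist2h2bb was at 4073 and 4774 reads (230 and 343 CPM, log2 0.61, 0.55 to 0.67), Hist1h2ak at 1085 and 1406 (log2 0.76, 0.64 to 0.87), Hist2h2ac at 2401 and 2197 (log2 0.25, 0.17 to 0.34) and Hist1h3e at 1064 and 1215 (log2 0.57, 0.45 to 0.69). The H1 genes fell in a narrow band, from Hist1h1c at 0.28 (0.23 to 0.33; 343 and 406 CPM) to Hist1h1b at 0.49 (0.41 to 0.57; 145 and 198 CPM). Hist1h1e (0.37), Hist1h1a (0.44) and Hist1h1d (0.45) lay between them.

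S-phase and mitosis genes were higher in OE-BECs along with the histones, whereas in the skin pair mitosis genes were and the S-phase median was near 0. Of the 20 S-phase genes 19 were higher and 10 by 1.5-fold (median log2 0.61), with Pcna at 67.0 and 86.7 CPM (0.41, 0.29 to 0.53) and Rrm2 at 117 and 214 CPM (0.91, 0.83 to 0.99). All 12 mitosis genes were higher, 4 by 1.5-fold (median 0.45), with Mki67 at 713 and 1011 CPM. Of the 17 genes of histone gene transcription and processing 12 were higher (median 0.28), with Slbp at 0.56 (0.45 to 0.66) and Npat at 0.05 (-0.095 to 0.19), and 6 of 7 chaperones were higher (median 0.51), with Nasp at 0.53 (0.43 to 0.62). The S-phase median exceeded the histone median of 0.34, and histone reads per S-phase read went from 1.74 to 1.47. Rpph1 went from 2019 to 400 CPM and Rn45s from 59087 to 108864 CPM between the same libraries, and the part of RNA composition or library preparation in the histone ratios was not tested.

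In the LEC pair the histone reads were too few to place most members. The sums of 175 and 227 reads gave a log2 ratio of 0.14 (-0.15 to 0.44), so no difference was detectable at this depth, and each of the 5 types had an interval that included 0. Of the 5 members with 20 reads 1 was higher by 1.5-fold, beside 5.72% of 12342 genes, and none lower (5.21%), and the interval lay above 0 for 1 (25.2%) and below 0 for none (22.4%). The higher gene was Hist1h4i, at 5 and 20 reads (log2 1.77, 0.31 to 3.54). Hist3h2a was at log2 -0.091 (-0.68 to 0.50), Hist2h2be at -0.16 (-0.82 to 0.50), Hist1h2bc at 0.17 (-0.75 to 1.11) and Hist1h1c at 0.22 (-1.004 to 1.48). The 3-fold rule called 2 of 13 members higher (2.77% of genes) and 2 lower (2.09%), of which all but Hist1h4i had at most 6 reads in either library. S-phase genes were level here (median 0.0043), and all 12 mitosis genes were lower (median -0.35, none by 1.5-fold).

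Across both cultured cell types, one fit of the OE effect with cell type as a term (edgeR's quasi-likelihood test, 4 libraries, 1 residual degree of freedom) tested 54 members among 12712 genes. None of the 54 passed an adjusted p of 0.05, the smallest adjusted p being 0.219. An unadjusted p under 0.05 in that test was reached by 8 of the 54, beside 1396 of the 12712 genes. Over all genes tested 29 were called higher and 65 lower. The LEC libraries add little to that fit for histone genes, given their read counts. The read filter before the fit could be met by the BEC libraries alone, and only 5 members had 20 reads in the LEC pair. For most of the 54 the fit thus could not test an effect shared by both cell types.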

How the data were processed

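The authors made strand-marked libraries from total RNA with the ScriptSeq v2 kit, trimmed the reads with skewer, aligned them to mm10 with STAR and counted them per gene with VERSE. The deposited values are raw counts, whole numbers per gene symbol. The gene annotation used for counting, the selection of RNA before library preparation and the handling of reads that fit several genes are not given in the sources used here. Total counts were 8863349, 11084686, 17685615, 13933651, 26117161 and 31032461 (skin Cont BECs, skin cKO BECs, cultured Cont BECs, OE-BECs, Cont LECs, OE-LECs). Intervals cover counting error only.

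From these counts, CPM was taken per 1000000 counted reads and RPKM per RefSeq span for members with 1 annotated exon. Ratios used median-of-ratios size factors (DESeq2 1.42.0, R 4.3.3) on the 2 libraries of a comparison, with exact Clopper-Pearson intervals (scipy 1.17.1). A member was counted as higher or lower at 1.5-fold with at least 20 reads in the pair, and by the 3-fold rule of the study. A count of 3 was the floor for folds against a library near 0. The shared OE effect was fitted with edgeR 4.0.16 (quasi-likelihood test, Benjamini-Hochberg adjusted). Both steps were tested on simulated data. The simulated ratios had counting error only. The simulated fit had large changes in genes with many reads in each library, unlike most histone genes in the LECs. Genes, lists (replacement histones, histone gene transcription and mRNA processing, chaperones, S phase, mitosis, cell markers) and tests were chosen with earlier results of these data known, and support nothing on their own. Named were the 3 members of each type with the highest mean CPM, members past the 3-fold rule with 20 reads, the 3 highest and 3 lowest ratios per comparison among members with 100 reads, every H1 gene with 100 reads, and the 2 most counted genes of each list with Slbp, Npat, Pcna, Mki67 and Dot1l. Other genes were named after their values were seen. Positions came from GENCODE M21 and sequences from it and RefSeq (GRCm38.p6). Alternatives were other size factors, read minimums, removal of a trend over GC content and length, and leaving out the most counted member or members with shared windows.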

Additional observations from a re-analysis of the deposited data

Results flagged for a closer look

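Hist1h4i, an H4 gene, had opposite ratios in the cultured cell types. Its log2 ratio was -0.46 (-0.74 to -0.18) in OE-BECs, with 303 reads in Cont and 169 in OE-BECs, and 1.77 (0.31 to 3.54) in OE-LECs, with 5 and 20 reads. With 1 library per condition the difference between the cell types was not tested, and the LEC value rests on 25 reads.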

How the results depend on the processing

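The summed level of all members kept its direction under every alternative run in the 3 comparisons, and the median in the skin and cultured BEC pairs. The median in OE-LECs went from 0.17 to -0.091 with at least 100 reads. Of the single types, whose intervals there included 0, H4 in OE-BECs went from 0.02 to -0.024 by total counts, and H2A in OE-LECs from 0.0062 to between -0.021 and -0.012 under 3 alternatives. For the skin pair, the summed log2 ratio was 0.91 by total counts, 0.83 without Hist1h4d, the most counted member, 0.81 after a trend over GC content and length was removed, and 0.70 without members that share 50% or more of their 75-base windows, an alternative added after the data were seen, beside 0.85. That alternative also put H2A at 1.24 and H2B at 0.46, beside 1.52 and 0.63. For OE-BECs it was 0.32 by total counts, 0.38 with size factors from all 6 libraries and 0.42 without that trend, beside 0.36. Small counts moved more. With a minimum of 20 the 3-fold rule called 0 members lower in OE-BECs and 0 higher and 0 lower in OE-LECs, and with size factors from all 6 libraries 1 higher and 1 lower in OE-LECs. Members lower by 1.5-fold in OE-BECs were 2 by total counts and 0 among those with 100 reads in the pair, and members higher by 1.5-fold in OE-LECs were 0 with 100 reads. Of the results run, 15 values of the main comparisons and 12 of single types moved, and 76 and 60 did not. A sum moved if it left its counting interval, and a count of members if it changed by over 1.5 times. Medians were judged against a wider interval that is not one of counting error, such as 0.56 to 1.05 around 0.81 in the skin pair. The labels number no replicates, so the one paired fit was that of the OE effect over the 2 cultured cell types with cell type as a term, and no library could be left out of a group of 1. Depth limits the LEC pair, where 402 histone reads were counted in all.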

Other observations

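Replacement histone genes, whose mRNAs mostly carry poly(A) tails, were counted in the LEC libraries at summed levels above those of the BECs, in contrast to the replication-dependent genes. The 11 genes summed to 1244 and 1365 CPM in the skin pair, 1286 and 1364 CPM in the cultured BEC pair and 1812 and 1584 CPM in the LEC pair, the control first. H1f0, a linker histone of slowly dividing cells, was at 235, 256, 367, 399, 501 and 365 CPM, and H3f3b, an H3.3 gene, at 398, 431, 321, 356, 525 and 592 CPM. H2afx, a member of this list that also holds the stem-loop, was at 65.1, 105, 144, 155, 68.1 and 57.1 CPM.

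Members known from the testis were nearly silent. Hist1h1t had 5 and 18 reads in the skin libraries and 0 in the other 4, Hist1h2aa had 3 reads in skin cKO BECs alone, and Hist1h2ba had 2 and 1 reads in cultured Cont and OE-BECs. The pseudogene Hist3h2bb-ps had 3, 12, 7 and 4 reads in the BEC libraries and none in the LECs. These genes were chosen after their values were seen.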
